A study of Mus musculus with 4 samples.

Results

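The 10 genes described here encode the tubulins and microtubule-associated proteins by which newborn neurons of the embryonic telencephalon move and extend processes. They are the α-tubulin gene Tuba1a, the β-tubulin genes Tubb2a, Tubb2b, Tubb3 and Tubb5, the doublecortin genes Dcx and Dclk1, the LIS1 gene Pafah1b1, the tau gene Mapt, and Map2. They were chosen by gene name, by a rule that uses no measured value but was set with earlier results of these data known, and all 10 were found among the 27293 genes of the count table. RNA was sequenced from telencephalic tissue of C57BL/6 mouse embryos at embryonic day 13 in 4 libraries. The 2 libraries WT 1 and WT 2 are labelled with the genotype WT, and the 2 libraries cKO 1 and cKO 2 with the genotype STINGf/f;Nestin-Cre. In the latter, Cre recombinase driven by the Nestin promoter acts on the floxed STING gene in neural progenitors and so also affects the neurons derived from them. The labels name no treatment for either group. The labels do not say whether the WT libraries carry floxed alleles or Cre, whether they are alike in this, nor whether the libraries come from separate embryos, so p-values measure only the spread between these libraries.

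Microtubules are polymers of α- and β-tubulin heterodimers, and each mammalian genome holds several genes for either subunit, the isotypes, which differ mostly in their acidic C-terminal tails. A neuron that leaves the ventricular zone extends a leading process and pulls its nucleus forward along microtubules with the motor dynein. Doublecortin stabilises the lattice in the leading process, LIS1 regulates dynein, and tau and MAP2 bind along the lattice of axons and dendrites. Mutations in the human genes for TUBA1A, TUBB2B, TUBB3, DCX and LIS1 cause malformations of the cortex such as lissencephaly and polymicrogyria.

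The counts on genes summed to between 17209654 and 18533391 per library. The STING gene, listed as Tmem173, had 20 and 19 counts in WT 1 and WT 2, and 18 and 22 in cKO 1 and cKO 2, so the deletion was not visible in its total count (log2 fold change of cKO over WT 0.02, standard error 0.45), which includes reads from any part of the gene and from any cell of the tissue. The libraries were not uniform in make-up. All 15 cortical neuron markers searched were measured, with a summed level of 3326 CPM (normalised read counts scaled to equal library size) in WT 1 and 3870 in WT 2, against 3796 and 3341 in cKO 1 and cKO 2. WT 1 carried 61.5 CPM over 8 choroid plexus markers, where the other libraries had 7.21 to 10.4, and 294.2 CPM over 9 markers of meninges and mesenchyme, where the others had 40.6 to 76.5. At the study's thresholds, by unadjusted p, the choroid plexus markers Aqp1, Kcne2, Otx2 and Htr2c and the collagen genes Col1a1 and Col1a2 were called lower in cKO, each with its highest value in WT 1. No marker of endothelium, microglia, erythroid cells, diencephalon or Cajal-Retzius cells was called. The 6 endothelial markers all had a log2 fold change below 0 (median -0.41), 4 with both cKO libraries below both WT libraries (10.8% of all genes tested), and Flt1 and Cdh5 had an unadjusted p of 0.0217 and 0.0498 in edgeR's test. The 7 erythroid markers were also all below 0 (median -0.37), with a summed level of 958.6 CPM in WT 1 and 438.3 to 664.8 in the others. Over 10 markers of ventral telencephalon and GABA neurons, cKO 1 had 682.7 CPM and the others 1020 to 1064.5. WT 2, whose title ends in "nes" where that of WT 1 ends in "wt", had 0 reads on Ddx3y, Eif2s3y, Kdm5d and Uty, all Y-linked, which together had 1848 to 3002 reads in the other libraries. In cKO 2, values followed the base composition of the transcripts, as described further on with the genes it touches. The part of these differences in the values below was not tested, unless a value without the library is given.

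Tubulin isotype genes resemble each other closely enough to matter for counting, so the ends of their coding sequences are shown, from GENCODE M21 on the build GRCm38. Each line is the last 60 coding bases, stop codon included, written 5′ to 3′ on the strand of the gene, and capitals mark bases that differ from, or have no counterpart in, the aligned Tubb2a sequence.
Tubb2a: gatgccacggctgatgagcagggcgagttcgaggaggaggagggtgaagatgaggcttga
Tubb2b: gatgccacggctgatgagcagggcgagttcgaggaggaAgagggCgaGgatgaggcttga
Tubb3: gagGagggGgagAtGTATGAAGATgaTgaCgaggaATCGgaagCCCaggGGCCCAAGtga
Tubb5: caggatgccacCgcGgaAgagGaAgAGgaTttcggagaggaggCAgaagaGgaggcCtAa
The stretches lie at chr13:34074468-34074527 on the minus strand (Tubb2a), chr13:34127471-34127530 on the minus strand (Tubb2b), chr8:123421623-123421682 on the plus strand (Tubb3) and chr17:35834982-35835041 on the minus strand (Tubb5), each in the coding part of the gene's last exon. In this stretch, which encodes the variable tail, Tubb2b differed from Tubb2a at 3 bases, Tubb5 at 13 and Tubb3 at 30, bases without a counterpart included. Over the whole coding sequence Tubb2b was 96.5% identical to Tubb2a, with an unbroken identical run of 551 bases, while Tubb3 and Tubb5 were 84.3% and 84.8% identical with no identical run over 50 bases. Accordingly, 49.6% of the 50-base windows of the Tubb2a transcript and 39.3% of those of Tubb2b also occurred in another annotated transcript, mostly in each other. The share was 72.9% for Tuba1a, whose main partner was Tuba1c, and 0.0% for Tubb3, Dclk1, Mapt and Map2. It was 0.12% for Tubb5, 0.25% for Dcx and 1.6% for Pafah1b1. The sources used here do not say how reads that fit several genes were counted, nor whether the strand was used, so the counts of Tuba1a, Tubb2a and Tubb2b are uncertain as values of single genes. Tuba1a also shares 473 exonic bases, 26.2% of its exons, with the annotated gene Gm49450 on the same strand. That gene has no row in the count table. Dclk1 and Map2 share under 1% of their exons with antisense genes. The window shares above count every other annotated gene, overlapping ones included.

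Levels were compared between genes as normalised CPM per kilobase of transcript, averaged over the 4 libraries. Tuba1a had the highest level of the set at 3765 ± 489.8 (SD, n = 4). The β-tubulin genes Tubb5 at 1563 ± 179.6, Tubb2b at 1218 ± 129.8 and Tubb3 at 1042 ± 143.2 followed, and Tubb2a was lower at 190.3 ± 28.2. Among the associated proteins, Mapt was at 141.5 ± 18.6, Map2 at 102.6 ± 26.1, Dcx at 98.5 ± 30, Pafah1b1 at 49.3 ± 6.83 and Dclk1 at 36.9 ± 6.94. The ranges over libraries did not overlap between Tuba1a and Tubb5, Tubb5 and Tubb2b, Tubb3 and Tubb2a, or Dcx and Pafah1b1. They overlapped for the other neighbours in this order, Tubb2b and Tubb3, Tubb2a and Mapt, Mapt and Map2, Map2 and Dcx, and Pafah1b1 and Dclk1. Map2 was above Dcx in 3 of 4 libraries, and below it in all 4 when the length was taken as the union of all annotated exons, which is 16449 bases for Map2 and 12647 for Dcx, beside transcripts of 6258 and 9074 bases.

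The comparison of cKO with WT asks whether the messages of this migration machinery change when STING is deleted in neural progenitors. None of the 10 genes met a call rule. In edgeR's quasi-likelihood test, with p-values adjusted by Benjamini-Hochberg over all genes, 0 of 10 had an adjusted p under 0.05, 0 of 10 had an unadjusted p under 0.05, and DESeq2 also gave 0 of 10 by either rule. The background was low as well, with 0.0% of 16145 tested genes past the adjusted threshold and 1.23% with an unadjusted p under 0.05. At the thresholds of the study's methods, a fold change of at least 2 with an unadjusted p of at most 0.05, 0 of 10 genes and 0.811% of all genes were called. No gene of the set had both cKO libraries below both WT libraries, a pattern found in 10.8% of all tested genes, or both above, found in 11.0%. The log2 fold change of cKO over WT ran from -0.30 to 0.08, with a median of -0.11 beside -0.01 over all genes, and 7 of 10 were below 0. In whole tissue, fewer cells of a type and less RNA per cell cannot be told apart.

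**Figure D1:**
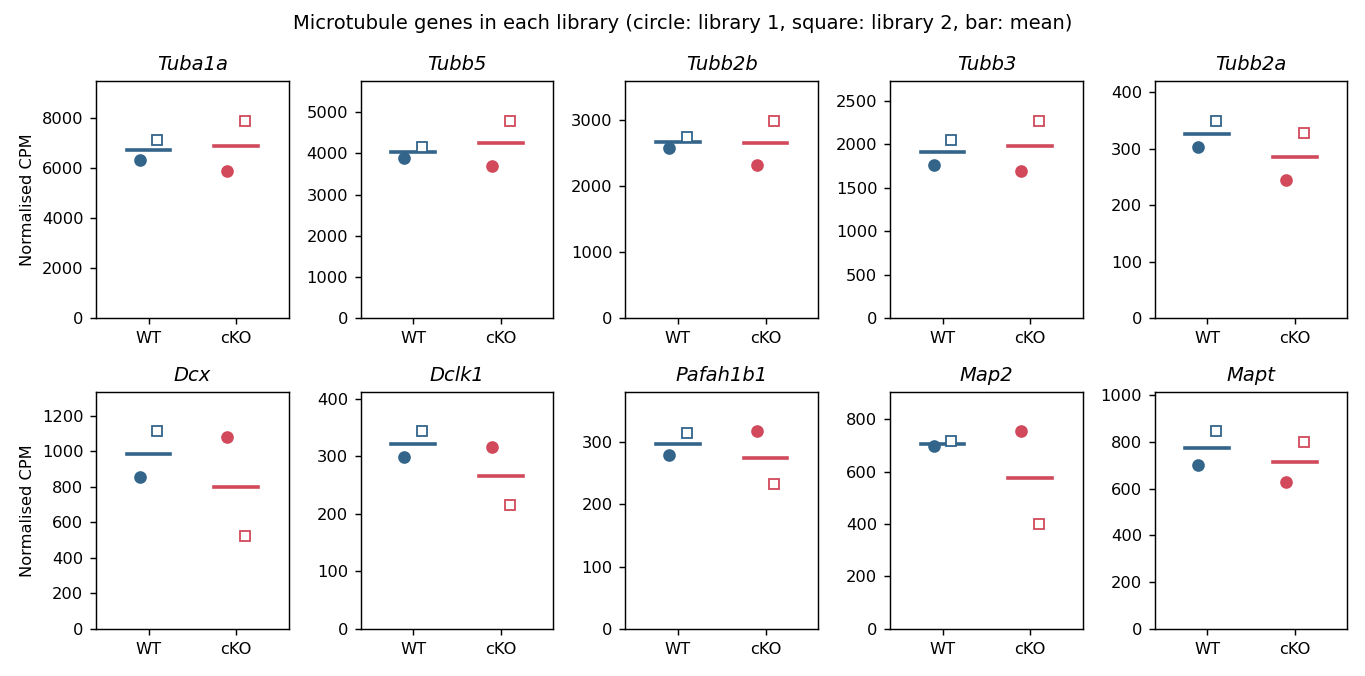
Normalised CPM of the 10 genes (vertical axes, each from 0) in the WT (blue) and cKO (red) libraries. Circles are library 1, open squares library 2 and bars the mean of each group. In no gene do the groups separate. The 5 tubulin genes and Mapt are higher in cKO 2 than in cKO 1, and Dcx, Dclk1, Pafah1b1 and Map2 are lowest in cKO 2.

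Tuba1a (ENSMUSG00000072235, chr15:98949841-98953551, minus strand) encodes the α-tubulin made in quantity by young neurons. It had 6298 CPM in WT 1 and 7089 in WT 2, against 5885 and 7880.5 in cKO 1 and cKO 2. The cKO libraries thus lay on either side of both WT libraries. The means were 6693.5 ± 559.5 CPM in WT and 6883 ± 1411 in cKO (SD, n = 2 each), a log2 fold change of 0.04 with a 95% interval of -0.45 to 0.53. Because of the shared sequence, Tuba1a was also summed with Tuba1b and Tuba1c. The sum was 7393 CPM in WT 1 and 8165 in WT 2, against 6919.5 and 9144 in cKO 1 and cKO 2, in the same order of libraries as Tuba1a by itself. Tuba1a made up 84.8% and 86.5% of the length-scaled reads of Tuba1a, Tuba1b, Tuba1c and Tuba4a in WT 1 and WT 2, and 84.7% and 85.9% in cKO 1 and cKO 2.

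Tubb3 (ENSMUSG00000062380, chr8:123411424-123422015, plus strand) encodes class III β-tubulin, the isotype used to mark neurons. Its level was 1768 CPM in WT 1 and 2053 in WT 2, against 1693 and 2274 in cKO 1 and cKO 2. Again cKO 1 was the lowest library and cKO 2 the highest, and the groups overlapped. The group means were 1910 ± 201.3 in WT and 1983 ± 410.8 in cKO (SD, n = 2 each), with a log2 fold change of 0.05 (95% interval -0.41 to 0.52). Tubb5 (ENSMUSG00000001525, chr17:35833921-35838306, minus strand), an isotype that progenitors use too, had 3902 CPM in WT 1 and 4149 in WT 2, against 3708 and 4800 in cKO 1 and cKO 2. Its log2 fold change of 0.08 (95% interval -0.37 to 0.53) was the highest of the set and within the spread of the libraries, with cKO 1 lowest and cKO 2 highest once more.

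Tubb2b (ENSMUSG00000045136, chr13:34126748-34130466, minus strand), a β-tubulin gene active in migrating neurons and radial glia, had 2583 CPM in WT 1 and 2743 in WT 2, against 2316 and 2991 in cKO 1 and cKO 2. The cKO mean of 2654 ± 477.4 lay within 1 SD of the WT mean of 2663 ± 112.9 (n = 2 each), with a log2 fold change of -0.01 (95% interval -0.45 to 0.44). Tubb2a (ENSMUSG00000058672, chr13:34074274-34078007, minus strand), its neighbour and near copy, had 303.7 CPM in WT 1 and 349.7 in WT 2, against 244.4 and 327.4 in cKO 1 and cKO 2. Here cKO 1 was below all the others while cKO 2 lay between the WT libraries, and the log2 fold change was -0.19 (95% interval -0.62 to 0.24). The sum of Tubb2a and Tubb2b does not depend on how reads were divided between them, but would lack any shared reads that were left uncounted. It was 2887 and 3093 CPM in WT 1 and WT 2, and 2560 and 3319 in cKO 1 and cKO 2. For each 100 reads on Tubb2b there were 11.8 and 12.7 on Tubb2a in WT 1 and WT 2, and 10.6 and 10.9 in cKO 1 and cKO 2. This ratio did not overlap between the groups, with a two-sided exact permutation p of 0.333, the smallest that 2 against 2 libraries can give.

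The mix of β-tubulin isotypes varied little between libraries. Of the length-scaled reads on 7 β-tubulin genes, Tubb3 made up 23.3% in WT 1 and 24.9% in WT 2, against 24.0% and 24.8% in cKO 1 and cKO 2. The WT mean of 24.1% ± 1.15 and the cKO mean of 24.4% ± 0.549 (SD, n = 2 each) differed by less than the spread between libraries (two-sided exact permutation test, p = 1). Tubb5 made up 36.3% and 35.5% in WT 1 and WT 2, and 37.1% and 36.9% in cKO 1 and cKO 2, so its share was higher in both cKO libraries, by 1.08 percentage points on average (exact permutation p = 0.333). The average shares over the 4 libraries were 28.4% for Tubb2b, 4.43% for Tubb2a, 3.96% for Tubb4b, 2.31% for Tubb4a and 0.161% for Tubb6. For Tubb2a the share was 4.65% and 4.93% in WT 1 and WT 2, and 4.02% and 4.14% in cKO 1 and cKO 2. Tubb2b, Tubb4a and Tubb6 also had lower shares in both cKO libraries than in both WT libraries. Those of Tubb4b and Tubb3 overlapped between the groups. The shares within a library add up to the whole, so they do not vary independently.

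**Figure D2:**
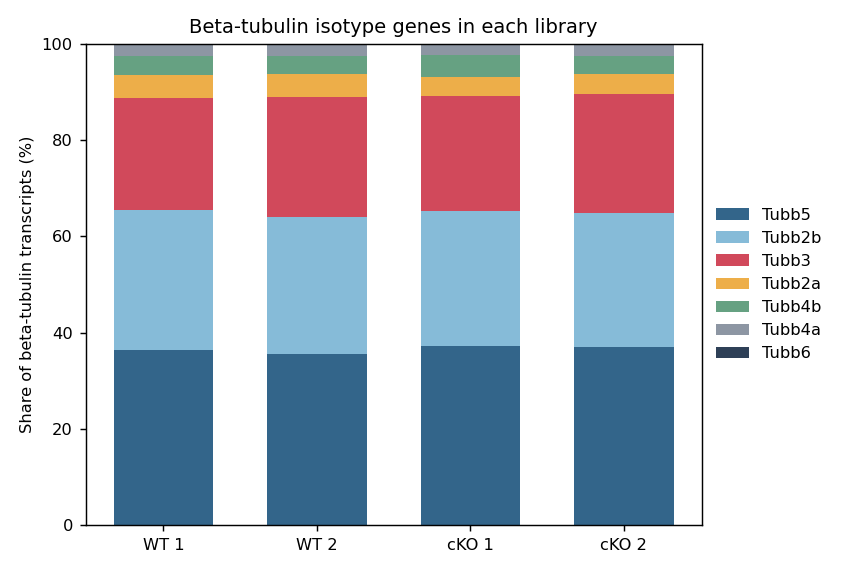
Share of each β-tubulin gene (vertical axis, percent of length-scaled reads on the 7 genes) in each library. Bars add up to 100 in each library. Tubb5, Tubb2b and Tubb3 fill most of each bar, and the share of Tubb3 lies between 23.3% and 24.9%.

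Of the associated proteins, Dcx, Dclk1, Pafah1b1 and Map2 had another order of libraries than the tubulins, with cKO 2 lowest. Dcx (ENSMUSG00000031285, chrX:143855842-143933311, minus strand), the gene of doublecortin and a marker of migrating neurons, had 14875 reads in WT 1 and 20511 in WT 2, against 19773 and 9360 in cKO 1 and cKO 2. In normalised units these were 855.5, 1114, 1081 and 523.8 CPM. cKO 1 resembled WT 2, whereas cKO 2 was the lowest library, 2.06-fold below cKO 1. With means of 984.7 ± 182.7 CPM in WT and 802.2 ± 393.7 in cKO (SD, n = 2 each), the log2 fold change was -0.30 (standard error 0.32, 95% interval -1.02 to 0.43, edgeR adjusted p = 0.9999). This was the largest difference and the widest interval of the set, and its lower end corresponds to 0.49 of the WT level. It was -0.91 without cKO 1 (edgeR adjusted p = 0.0692) and 0.15 without cKO 2 (edgeR adjusted p = 0.999). Without WT 2, the library with no reads on Y-linked genes, this X-linked gene was at -0.08. Dclk1 (ENSMUSG00000027797, chr3:55242364-55539068, plus strand), which encodes a doublecortin-like protein with a kinase domain, had 299.0 CPM in WT 1 and 343.9 in WT 2, against 316.4 and 215.6 in cKO 1 and cKO 2. Its log2 fold change was -0.27 (95% interval -0.75 to 0.20), and cKO 1 lay between the WT libraries. Without cKO 1 it was -0.57, and without cKO 2 it was -0.01.

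Pafah1b1 (ENSMUSG00000020745, chr11:74673949-74724670, minus strand) encodes LIS1, a regulator of dynein. It had 279.8 CPM in WT 1 and 314.1 in WT 2, against 317.6 and 232.2 in cKO 1 and cKO 2. The highest and the lowest library were both cKO, and the log2 fold change was -0.11 (95% interval -0.54 to 0.32), or -0.35 without cKO 1 and 0.11 without cKO 2. Map2 (ENSMUSG00000015222, chr1:66175273-66442583, plus strand), the gene of the somatodendritic lattice-binding protein, had 698.2 CPM in WT 1 and 715.6 in WT 2, against 753.9 and 399.5 in cKO 1 and cKO 2. The WT libraries and cKO 1 lay close together, and cKO 2 stood apart, 1.89-fold below cKO 1. The means were 706.9 ± 12.3 CPM in WT and 576.7 ± 250.6 in cKO (SD, n = 2 each), with a log2 fold change of -0.29 (standard error 0.27, 95% interval -0.92 to 0.34). Without cKO 1 it was -0.82, with an adjusted p of 0.0486 in edgeR's test and cKO 2 as the lone cKO library, assumed to vary like the WT libraries, while without cKO 2 it was 0.11 with an adjusted p of 0.999.

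Mapt (ENSMUSG00000018411, chr11:104231390-104332090, plus strand), the gene of the axonal protein tau, was not lowest in cKO 2. It had 701.2 CPM in WT 1 and 844.9 in WT 2, against 628.1 and 799.1 in cKO 1 and cKO 2. The library cKO 1 was lowest and cKO 2 lay between the WT libraries, and the log2 fold change was -0.12 (95% interval -0.55 to 0.32). Set against Mapt in the same library, Map2 gave 99.6 reads for each 100 Mapt reads in WT 1 and 84.7 in WT 2, against 120.0 and 50 in cKO 1 and cKO 2. Dcx gave 48.4 reads for each 100 Tubb3 reads in WT 1 and 54.3 in WT 2, against 63.8 and 23.0 in cKO 1 and cKO 2. In either ratio, which needs no scaling between libraries, the cKO libraries held both extremes. Each ratio sets a gene of lower GC over a gene of higher GC. The dependence of cKO 2 on base composition, described below, is therefore not removed from them.

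**Figure D3:**
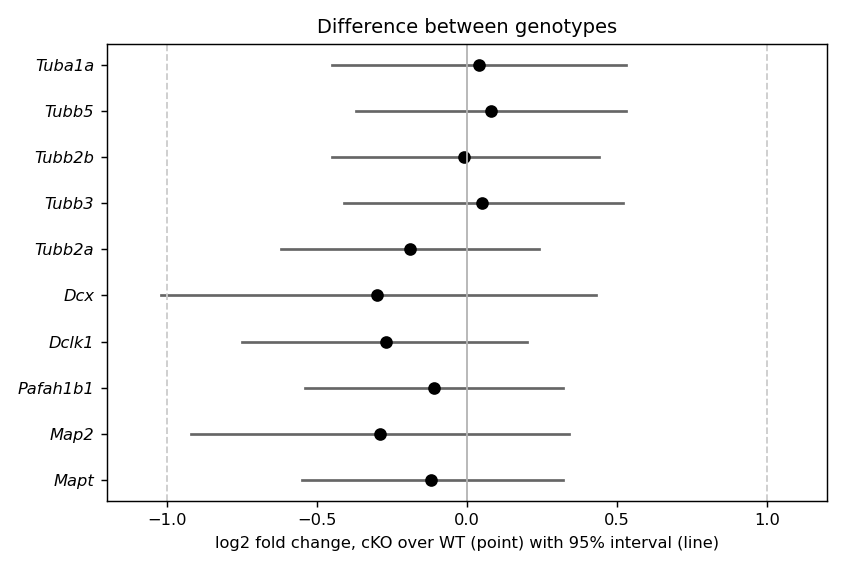
The log2 fold change of cKO over WT (horizontal axis) of each gene, as points with lines for the 95% interval from edgeR's quasi-likelihood fit, with dashed lines at 2-fold changes. Every interval includes 0. The interval of Dcx, -1.02 to 0.43, is the widest and reaches past the dashed line at -1, which no other interval does.

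Of the 10 intervals, those of Dcx, Map2 and Dclk1 reach furthest down and those of Tuba1a, Tubb5 and Tubb3 furthest up, where the upper ends correspond to 1.44-, 1.45- and 1.43-fold. The summed level of the 10 genes was 17688 CPM in WT 1 and 19716 in WT 2, against 16943 and 20443 in cKO 1 and cKO 2. That is 1.79%, 1.96%, 1.70% and 2.02% of all reads on genes. The means of 18702 ± 1433.5 CPM in WT and 18693 ± 2475 in cKO (SD, n = 2 each) differed by -9.24 CPM (two-sided exact permutation test, p = 1).

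The opposite order of the cKO libraries went with the base composition and length of the transcripts. Dcx, Pafah1b1, Dclk1 and Map2 have long transcripts of 9074, 5803, 7962 and 6258 bases with a GC content of 40.6%, 43.5%, 46.3% and 47.8%. The tubulin transcripts are 1610 to 2649 bases long with 51.2% to 57.9% GC, and Mapt has 5253 bases and 52.5% GC. Over 12617 tested genes with a mean count of at least 50, the log2 ratio of cKO 2 to cKO 1 had a median of -0.47 among the genes of lowest GC (up to 44.3%), when genes were split into 5 bins of equal size, and rose through -0.17, 0.02 and 0.18 to 0.30 in the bin of highest GC. Between WT 2 and WT 1 the medians ran only from -0.11 to 0.05. By length, the medians between cKO 2 and cKO 1 fell from 0.25 in the shortest of 5 bins to -0.24 in the longest.

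The 4 genes of GC up to 48.3% had a ratio of cKO 2 to cKO 1 below 0 and the other 6 a ratio above 0. Among the 4, the ratios did not follow the order of GC or of length. Among the 6, they lay close together, highest for Tubb3 with the highest GC and lowest for Mapt with the longest transcript. Dcx and Map2 had log2 ratios of cKO 2 to cKO 1 of -1.04 and -0.91, Dclk1 and Pafah1b1 of -0.55 and -0.45, and the 5 tubulins and Mapt of 0.35 to 0.43. Map2 lay below Pafah1b1, which has the lower GC, and Tubb2b and Tubb5, both at 0.37, belong to the GC bin with a median of 0.02. Of 12627 genes of any GC, 258 had a lower ratio than Dcx and 410 a lower ratio than Map2. The GC bins of Dcx and Map2 had medians of -0.47 and -0.17, and their ranks among genes of like GC were not taken. Between WT 2 and WT 1, all 10 genes had ratios from 0.04 (Map2) to 0.38 (Dcx). With GC content and length taken into the fit as offsets, a setting chosen after the data were seen, the log2 fold change of cKO over WT became -0.15 for Dcx (95% interval -0.53 to 0.22), -0.20 for Dclk1, 0.01 for Pafah1b1 and -0.25 for Map2 (95% interval -0.70 to 0.20). For Tubb2a it became -0.26 (95% interval -0.52 to 0.01). After the same offsets, the log2 ratio of cKO 2 to cKO 1 became -0.31 for Dcx and -0.20 for Dclk1. It was 0.01 for Pafah1b1 and -0.67 for Map2, so that of Map2 was least reduced. The Map2 transcript used has 181 bases after the coding part, against 3720 to 7709 in those of Dcx, Dclk1 and Pafah1b1. All annotated Map2 exons cover 16449 bases, so its GC, length and offset may not stand for the whole message. Whether this bears on its ratio was not tested.

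**Figure D4:**
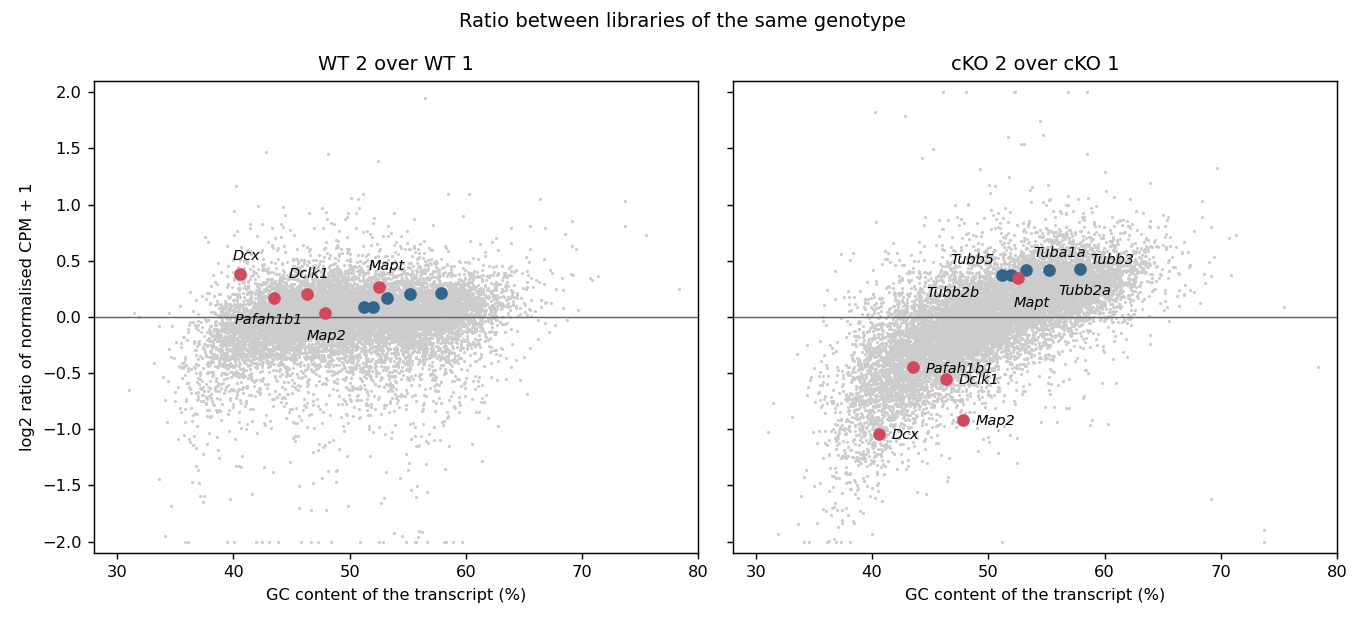
The log2 ratio of normalised CPM plus 1 between the libraries of 1 genotype (vertical axis, values beyond 2 in either direction drawn at 2) against the GC content of the transcript (horizontal axis, percent). Grey points are 12617 genes, blue points the tubulin genes (unlabelled on the left) and red points the genes of associated proteins. On the right the cloud slopes upward, with Dcx at -1.04 and Tubb3 at 0.43, and on the left it is nearly flat.

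The rest of the microtubule system was read from 9 further lists, of which 95 genes could be tested. Of these 95, 0 were called at the study's thresholds and 0 had an adjusted or an unadjusted p under 0.05 in edgeR's test, and DESeq2 called 0 at the study's thresholds. The log2 fold changes had a median of 0.03, with 41 below 0 and 54 above. Both cKO libraries were below both WT libraries in 7 of them and above in 5, beside the 10.8% and 11.0% over all genes. The order of libraries seen in the 10 genes recurred by GC content. This was read among genes with a mean count of at least 50. Of 30 such genes of the lists with a transcript GC of at most 48.3%, 23 were lowest in cKO 2. That is 76.7%, beside 66.5% over all genes of such GC and count. Of 63 genes above this GC, 5 were lowest in cKO 2 (7.94%, beside 11.8%).

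Among the other α- and β-tubulins, with 6 genes tested and a median log2 fold change of 0.09, Tuba1b and Tubb4b had the highest levels per length. Tubb4b had 263.2 and 251.6 CPM in WT 1 and WT 2 and 264.8 and 300.2 in cKO 1 and cKO 2. The groups thus separated by a narrow margin, at a log2 fold change of 0.13 (standard error 0.15). Tubb6, an isotype also found in non-neural cells, was at 15.1 and 13.1 CPM in WT 1 and WT 2 and at 7.87 and 12.5 in cKO 1 and cKO 2, at a log2 fold change of -0.47 (standard error 0.28). Of the DCX family, 4 further genes were tested, and their median was -0.19. Dclk2, the paralog of Dclk1, had 437.5 and 447.9 CPM in WT 1 and WT 2 and 361.2 and 430.6 in cKO 1 and cKO 2. Both cKO libraries were below both WT libraries, at a log2 fold change of -0.16 (standard error 0.16). Its transcript of 8042 bases has 52.3% GC, and cKO 2 was not its lowest library. Dclk3, Dcdc2b and Dcdc5 were low, with at most 113 reads in any library.

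The LIS1 partners and subunits of dynein and dynactin comprised 20 tested genes with a median of 0.05. Ywhae, the 14-3-3ε gene deleted together with Pafah1b1 in Miller-Dieker syndrome, had 1321 and 1326 CPM in WT 1 and WT 2 and 1305 and 1395 in cKO 1 and cKO 2. The light chain gene Dynlrb1 had the highest log2 fold change, 0.26 (standard error 0.18), and the dynein adaptor Bicd1 the lowest, -0.46 (standard error 0.36). Bicd1 has a transcript of 9667 bases with 37.0% GC, and its 494, 384, 453 and 197 reads in WT 1, WT 2, cKO 1 and cKO 2 repeat the low value of Dcx in cKO 2.

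Of 13 other structural MAPs, with a median of -0.05, Map1b had the highest level per length. This gene of a MAP of growing axons had 1861 and 2098 CPM in WT 1 and WT 2 and 2045 and 1727 in cKO 1 and cKO 2, at a log2 fold change of -0.07 (standard error 0.18). Map7d1 was at 0.12, Map9 at -0.18 and Map7, with at most 89 reads, at -0.38. The 11 plus-end proteins, which bind growing microtubule ends, had a median of -0.05, with Mapre2 at -0.10, Mapre3 at 0.07, Slain1 at -0.24 and Slain2 at -0.22.

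Of 10 genes of stathmins and severing enzymes, with a median of 0.05, the tubulin-binding stathmin gene Stmn1 had 1443.5 and 1643.5 CPM in WT 1 and WT 2 and 1508 and 1889 in cKO 1 and cKO 2, the order of Tubb3 within each genotype. Its log2 fold change was 0.14 (standard error 0.19), and that of Stmn3 was 0.06. The severing enzyme gene Fign was at -0.63 (standard error 0.32), the lowest log2 fold change of the 95 genes, with 194 and 127 reads in WT 1 and WT 2 and 122 and 89 in cKO 1 and cKO 2. Its relative Fignl1 was at -0.27. The 14 tubulin-modifying enzymes had a median of 0.06, with the acetyltransferase gene Atat1 at 0.04 and Svbp, Ttll5 and Agbl4 at 0.21, 0.23 and -0.30. The 7 tubulin folding cofactors had a median of 0.09, with Tbca at 0.16 and Tbcb at 0.24. The 10 kinases of microtubule proteins and their activators had a median of 0.01. Cdk5r1, the p35 activator of Cdk5, was at -0.08, Gsk3a at 0.12 and Mapk8 at -0.19.

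**Figure D5:**
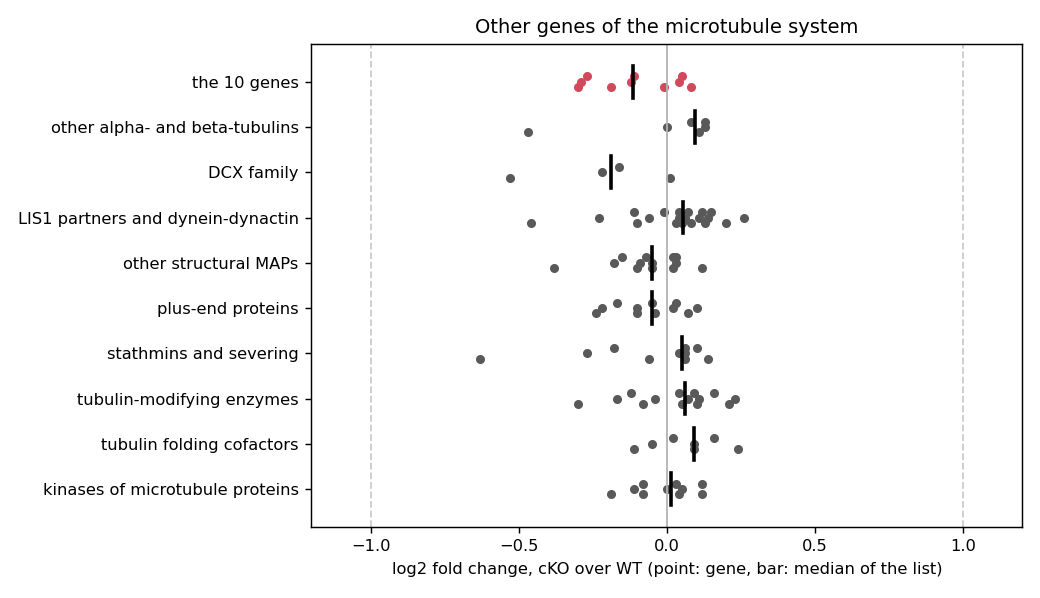
The log2 fold change of cKO over WT (horizontal axis) of each tested gene as a point, by list, with the list's median as a bar and dashed lines at 2-fold changes. The 10 genes are in red with a median of -0.11. The medians of the other lists lie between -0.19 and 0.09, and no point passes a dashed line.

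Neuronal and progenitor markers were read beside the 10 genes. Of 15 cortical neuron markers, 9 were lowest in cKO 2 and 5 highest there (60% and 33.3%, beside 33.4% and 33.6% of all genes tested), and 0 were called or had an unadjusted p under 0.05 in edgeR's test. Gap43, a growth cone protein gene with 49.7% GC, had 242.3 and 287.3 CPM in WT 1 and WT 2 and 222.0 and 323.7 in cKO 1 and cKO 2, in the order of Tubb3. Elavl4, an RNA-binding protein gene of neurons with 38.9% GC, had 137.9 and 120.7 CPM in WT 1 and WT 2 and 148.1 and 60.4 in cKO 1 and cKO 2, with the low value of Dcx in cKO 2. Not all neuron markers divided by GC as Gap43 and Elavl4 did. Tbr1 with 51.9% GC and Bcl11b with 50.1% GC were also lowest in cKO 2. Their log2 ratios of cKO 2 to cKO 1 were -0.54 and -0.32. Of 11 radial glia markers, 3 were lowest and 3 highest in cKO 2. For 9 intermediate progenitor markers, 2 were lowest and 3 highest there. Both cKO libraries were above both WT libraries in 3 markers of either list, beside 11.0% of all genes tested, and below in 0. The log2 fold change was above 0 in 8 radial glia and 5 intermediate progenitor markers. Of either list, 0 were called or had an unadjusted p under 0.05 in edgeR's test. Among the cortical neuron markers, both cKO libraries were below both WT libraries in 2 and above in 0. The median log2 fold change was -0.01 over the cortical neuron markers, 0.08 over 11 radial glia markers, 0.07 over 9 markers of intermediate progenitors and -0.20 over 10 markers of ventral telencephalon and GABA neurons. Of the last, Gad1, the gene of a GABA-synthesising enzyme, had a log2 fold change of -0.45 (standard error 0.15, unadjusted p = 0.0179 in edgeR's test) and was not called. The part of such neurons in the levels of the 10 genes was not tested.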

How the data were processed

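The authors deposited raw counts of reads per gene for 4 libraries, made per the submitters' processing notes with Bowtie2 2.2.3, TopHat2 2.0.12 and HTSeq 0.6.0 on build mm9. The handling of strand and multi-mapping reads is not given in the sources used here. Positions in the table match GENCODE M21 (GRCm38) for 97.3% of genes and were read as GRCm38. Of 27304 rows, 11 with no gene were left out. A second deposited table, of WT 1 and cKO 1, held the same counts for 21342 shared genes. Columns of the authors' own comparisons (fold changes, p-values) were not used.

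In R 4.3.3, genes were filtered with filterByExpr, which left 16145, and fitted on genotype without covariates by the quasi-likelihood method of edgeR 4.0.16, after TMM normalization. DESeq2 1.42.0 was an alternative. CPM are counts scaled to library size and TMM factors. Intervals are 95%, and log2 ratios of single libraries used a pseudocount of 1 CPM. Transcript length and GC come from 1 GENCODE transcript per gene. A count of 0 allows up to 3 reads, 0.162 CPM in WT 2, and covers counting error only. With 2 libraries a group, an exact permutation test of 1 value cannot give a p below 0.333. The fit was tested on simulated counts. The 10 genes and all lists were chosen with earlier results of these data known. All 10 are described. From each other list, genes that met a call rule were named, or otherwise up to 2 with the highest level per length and up to 2 with the largest absolute log2 fold change. Of the marker lists, only those genes are named that met a call rule, had an unadjusted p under 0.05 in edgeR's test, or are set beside the 10 genes. Alternatives covered normalization, filtering, tools, the replicate block, single libraries left out and offsets for GC and length.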

Additional observations from a re-analysis of the deposited data

How the results depend on the processing

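No gene of the 10 was called at the study's thresholds in any setting. The calls over all genes moved more: 131 at the study's thresholds and 0 at an adjusted p under 0.05 became 405 and 65 with no filter, 72 where every library had to reach 10 counts, 65 with DESeq2, and 208 and 5 with the replicate block, and with 1 library left out they ran from 104 to 531 and from 0 to 116. The numbers pair libraries by number only (correlation of deviations 0.108), and in the fit with the replicate block the log2 fold changes were -0.38 for Dcx, -0.36 for Map2 and 0.04 for Tubb3, and it called 0 of the 10. With 1 library left out, 0 to 1 of the 10 genes had an adjusted p under 0.05 and 0 to 4 an unadjusted p under 0.05. The highest values came without cKO 1 (Map2, with Dcx at an adjusted p of 0.0692, Dclk1 at 0.116 and Pafah1b1 at 0.28), and without cKO 2 only Tubb2a had an unadjusted p under 0.05. Of the other microtubule genes, 0 to 1 were called. These were Dcdc2a, with 36 reads in WT 1 and at most 7 elsewhere, with no filter (1 gene) and without WT 2, and Bicd1 without cKO 1, and both were named after their values were seen.

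Directions depended on single libraries. With 1 library left out, the log2 fold change ran from -0.16 to 0.25 for Tubb3 (-0.05 without WT 1), -0.17 to 0.24 for Tuba1a (-0.04 without WT 1), -0.41 to 0.00 for Tubb2a, -0.19 to 0.17 for Tubb2b (0.05 without WT 2), -0.11 to 0.26 for Tubb5, -0.91 to 0.15 for Dcx, -0.57 to -0.01 for Dclk1, -0.35 to 0.11 for Pafah1b1, -0.29 to 0.05 for Mapt (0.04 without WT 2) and -0.82 to 0.11 for Map2. The values above 0 of Dcx, Map2 and Pafah1b1 came without cKO 2. Offsets for GC and length turned Tubb3 to 0.00, Tuba1a to -0.02 and Pafah1b1 to 0.01, and Tubb2b was at 0.00 with no filter. The difference in summed CPM ran from -1759 to 1741 with 1 library left out, and that in the Tubb3 share from -0.537 to 1.09 percentage points.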
